A study of Mus musculus with 4 samples.

Results

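The MHC class II genes of the mouse, their chaperone gene Cd74 and their master regulator gene Ciita are 10 of the 50600 genes counted. They were listed by name and chosen by their levels in these libraries, where Cd74 was abundant and Ciita close to the detection floor, so the levels are given as a description without a test. All 10 were found in the tables. The libraries came from primary T cells of the C57BL/6NJ strain, sequenced in bulk as 4 biological replicates of a single group. Age and sex were not recorded, no genotype or treatment separates the libraries, and all carry the same donor identifier. The assay is labelled as total RNA, while the title of the linked library protocol names polyadenylated RNA. The sample names in the file headers read mmTh0, activated and 72 h, and the linked differentiation protocol is for CD4+ T cells. The labels call the replicates biological without saying whether they were separate mice or cultures, so test results measure only the spread between these libraries. Part of that spread may be technical, although Xist and Ddx3y, given below, set replicates 1 and 2 apart from replicates 3 and 4.

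Class II molecules are pairs of an alpha and a beta chain that carry peptides from the endosome to the cell surface, where CD4+ T cells read them. In mice the presenting pairs are I-A (H2-Aa with H2-Ab1) and I-E (the product of H2-Ea with H2-Eb1). The invariant chain, encoded by Cd74, escorts new pairs and blocks their groove. The DM pair (H2-DMa with H2-DMb1 or H2-DMb2) then exchanges its remnant for peptide, and the DO pair (H2-Oa with H2-Ob) restrains DM. Ciita encodes a coactivator that does not bind DNA itself but docks on the RFX, CREB and NF-Y factors at the promoters of these genes. B cells, dendritic cells and macrophages are the usual producers, and mouse T cells are known for making little or no class II.

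The library totals ran from 49613182 to 94222415 counts. T-cell marker genes were high in all libraries, with a summed level of 8634 to 8948 TPM over 10 genes, where TPM is the count per exon length scaled to the same total in every library. Xist, which acts in X inactivation, reached 332 and 150.1 TPM in replicates 1 and 2 and at 0.877 and 0.392 TPM in replicates 3 and 4, and the Y-linked gene Ddx3y at 0.0344 and 0.0834 TPM against 49.0 and 45.8 TPM. The libraries thus fell into pairs that the shared donor label does not show. Replicates 1 and 2 had the pattern of female cells, and replicates 3 and 4 that of male cells.

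The 10 genes formed 3 tiers. Cd74 stood alone at the top, H2-Eb1, H2-Oa, H2-DMa and H2-Ab1 lay together between 16.1 and 42.1 TPM, and H2-Aa, H2-DMb1, H2-DMb2, H2-Ob and Ciita lay at or below 1.39 TPM in every library. In bulk RNA, fewer cells making a transcript and less RNA per cell cannot be told apart. Of the 10 genes, 5 reached 1 TPM in all libraries, against 49.4% of all protein-coding genes. The median of the 10 mean levels was 11.3 TPM, beside 1.21 TPM over the 21764 protein-coding genes. It falls in the gap between H2-Ab1 at 21.7 and H2-Aa at 0.880 TPM, so none of the 10 genes stood near it.

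**Figure D1:**
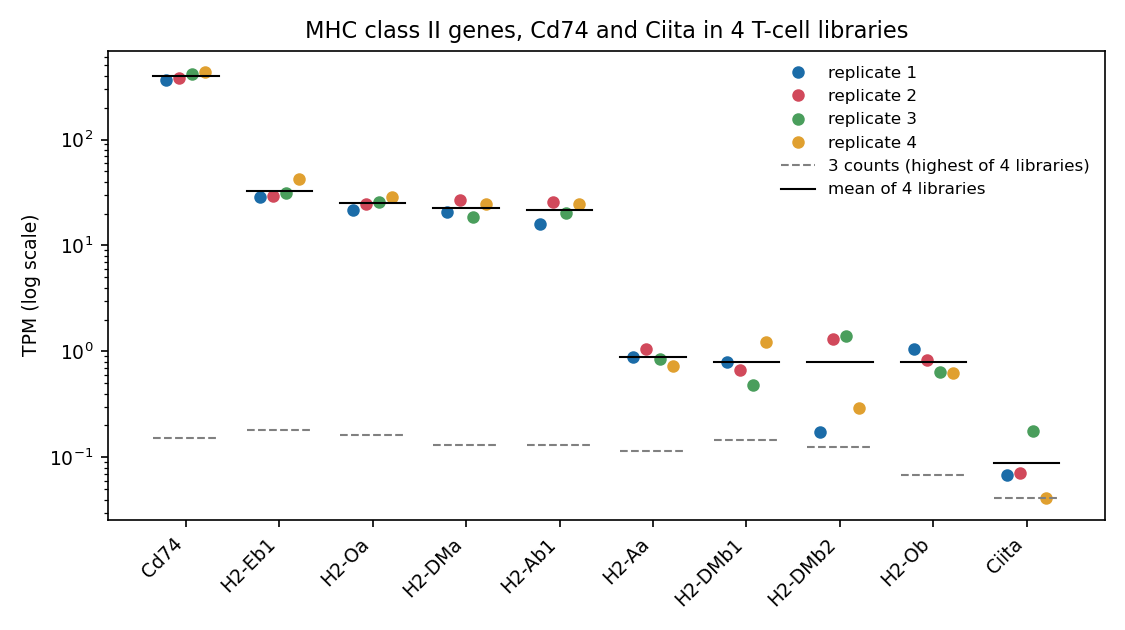
TPM of each of the 10 genes on a log axis, with 1 point per library, a solid bar at the mean of the 4 libraries and a dashed bar at the level that 3 counts would give in the library where it is highest. Cd74 sits near 397 TPM, 4 genes sit between 16.1 and 42.1 TPM, and 5 sit at or below 1.39 TPM.

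Cd74, which also serves at the cell surface as a receptor for the cytokine MIF, is on chromosome 18 of mm10 (60803848 to 60812646, plus strand). Its level was 363, 380.3, 413 and 433 TPM in replicates 1 to 4, from 8115 to 16971 counts. The mean was 397 ± 31.8 TPM (SD, n = 4), higher than in 98.3% of protein-coding genes, and the highest library was 1.19 times the lowest. None of its 50-base words was found in the transcripts of another gene, and 12 of its 1410 exon bases were shared with another gene on the same strand.

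The other genes of abundance were not one kind of chain. H2-Eb1, the I-E beta chain (mm10, chromosome 17, 34305877 to 34316199, plus strand), stood at 28.8, 29.3, 31.2 and 42.1 TPM, with replicate 4 above the rest. H2-Oa, the DO alpha chain (chromosome 17, 34092340 to 34095234, plus strand), stood at 21.8, 24.6, 25.5 and 28.8 TPM. H2-DMa, the DM alpha chain (chromosome 17, 34135182 to 34139101, plus strand), stood at 20.6, 26.9, 18.6 and 24.4 TPM, highest in replicate 2 and lowest in replicate 3. H2-Ab1, the I-A beta chain (chromosome 17, 34263209 to 34269418, plus strand), stood at 16.1, 25.6, 20.3 and 24.9 TPM, lowest in replicate 1. Their means were 32.9 ± 6.24, 25.2 ± 2.90, 22.6 ± 3.74 and 21.7 ± 4.44 TPM (SD, n = 4), each higher than in 68.9% to 74.5% of protein-coding genes.

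Below H2-Eb1, neighbours within this tier could not be ordered beyond their spread. The log2 ratio of H2-Oa to H2-DMa was 0.16 ± 0.25 and that of H2-DMa to H2-Ab1 was 0.07 ± 0.21 (SD, n = 4), and both changed sign between libraries. H2-Eb1 exceeded H2-Oa in 4 of 4 libraries by a log2 ratio of 0.37 ± 0.13 (SD, n = 4), larger than its spread within libraries, although the lowest H2-Eb1 and the highest H2-Oa library both stood at 28.8 TPM. That order turned with the gene length used: per base of the longest protein-coding transcript, H2-Eb1 stood at 17.0 and H2-Oa at 22.2 TPM. Cd74 was 12.2 times H2-Eb1 and 18.6 times H2-Ab1 as a geometric mean of the within-library ratios, and its range was apart from that of every other gene.

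The partner chains of this middle tier were near 1 TPM. H2-Aa, the I-A alpha chain (mm10, chromosome 17, 34282744 to 34287827, minus strand), had 28, 32, 22 and 38 counts, which came to 0.890, 1.06, 0.843 and 0.730 TPM. These 4 values had 95% Poisson intervals, which cover counting error only, that all overlapped, from 0.517 at the lowest bound to 1.49 TPM at the highest. For H2-Ob, the DO beta chain (chromosome 17, 34238903 to 34245907, plus strand), 56, 42, 28 and 55 counts gave 1.06, 0.825, 0.638 and 0.628 TPM. Replicate 1 was the highest for H2-Ob, and its interval overlapped those of the other libraries.

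The DM beta chain is encoded by neighbouring and similar genes. H2-DMb1 (mm10, chromosome 17, 34153072 to 34160230, plus strand) had 20, 16, 10 and 51 counts, or 0.803, 0.667, 0.483 and 1.24 TPM. H2-DMb2 (chromosome 17, 34143307 to 34151553, plus strand) had 5, 36, 33 and 14 counts, or 0.174, 1.30, 1.39 and 0.295 TPM. The genes took opposite orders: H2-DMb1 was above H2-DMb2 in replicates 1 and 4 and below it in replicates 2 and 3. The Poisson intervals of H2-DMb2 in replicates 2 and 3 began at 0.913 and 0.954 TPM, above the upper bounds of 0.407 and 0.494 TPM in replicates 1 and 4. These intervals hold counting error alone. With the spread between libraries included, H2-DMb2 was not called (edgeR unadjusted p = 0.0123, adjusted p = 0.640, without a filter on low counts). Of the 50-base words in the longest coding transcript, 27.2% of those of H2-DMb1 occurred in H2-DMb2 and 30.9% in H2-DMb2 occurred in another gene, H2-DMb1 among them. Reads from those stretches could be assigned to either gene or left out, so the level of each alone is uncertain. Their sum was 0.977, 1.97, 1.87 and 1.53 TPM.

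The low tier had no order beyond its spread above Ciita. The means of H2-Aa, H2-DMb1, H2-DMb2 and H2-Ob were 0.880 ± 0.136, 0.797 ± 0.320, 0.789 ± 0.644 and 0.787 ± 0.202 TPM (SD, n = 4), and the ranges of neighbours overlapped. The log2 ratio of H2-Aa to H2-DMb1 was 0.21 ± 0.71, that of H2-DMb1 to H2-DMb2 0.45 ± 1.96 and that of H2-DMb2 to H2-Ob -0.48 ± 1.71, each changing sign between libraries. H2-Ob was above Ciita in 4 of 4 libraries, by a log2 ratio of 3.32 ± 1.00, and their ranges did not overlap.

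**Figure D2:**
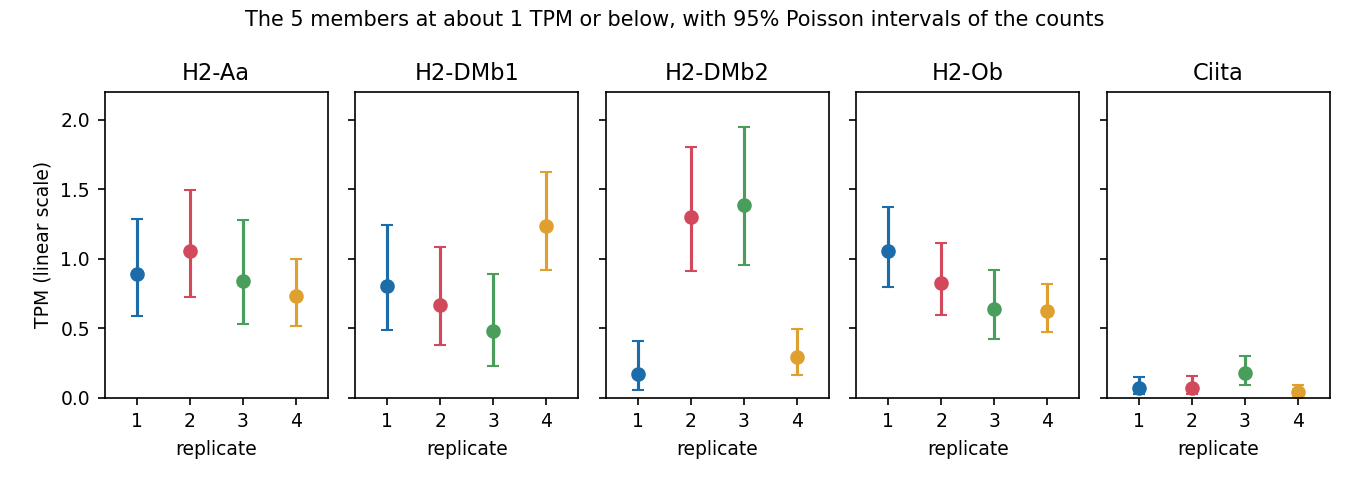
TPM on a linear axis of the 5 low genes in each of the 4 replicates, with 95% Poisson intervals of the counts as bars. The H2-Aa intervals all overlap, H2-DMb2 is higher in replicates 2 and 3 than in 1 and 4, and Ciita stays at or below 0.178 TPM.

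In each alpha and beta pair one chain was in the middle tier and its partner near the bottom, and which chain led differed between pairs. In I-A the beta chain led: H2-Ab1 was 18.0, 24.2, 24.1 and 34.1 times H2-Aa in replicates 1 to 4, a log2 ratio of 4.61 ± 0.38 (SD, n = 4). In DM the alpha chain led: H2-DMa was 21.1, 13.6, 9.93 and 16.0 times the sum of H2-DMb1 and H2-DMb2, a log2 ratio of 3.87 ± 0.45. In DO the alpha chain led as well: H2-Oa was 20.6, 29.9, 40.02 and 45.9 times H2-Ob, a log2 ratio of 5.03 ± 0.51. The leading chain was higher in 4 of 4 libraries in all 3 pairs, and the smallest of these ratios was the 9.93 of DM in replicate 3. H2-Oa overlaps the opposite-strand gene BC051537, with which it shares 21.7% of its 50-base words, and the counting used strand.

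For I-E no read of the partner was counted. The alpha gene, annotated here as H2-Ea-ps, is a pseudogene in strains of the b haplotype such as C57BL/6, where a deletion removes its promoter, and it had 0 counts in all 4 libraries. That allows up to 0.314 TPM at 3 counts in the shallowest library, so H2-Eb1 was at least 99.3-fold higher. H2-Eb2, a further beta chain gene beside H2-Eb1, stood at 0.135, 0.280, 0.130 and 0.261 TPM, from 4 to 16 counts.

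**Figure D3:**
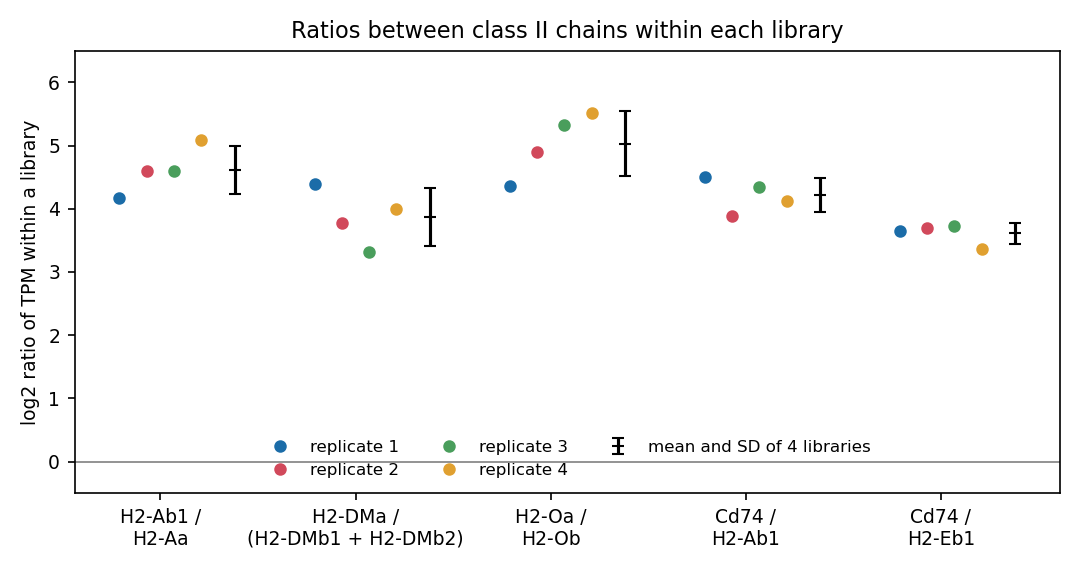
Log2 ratio of TPM within each library for 3 alpha and beta pairs and for Cd74 over both abundant beta chains, with 1 point per replicate and the mean with its SD beside them. All points lie above 3, with mean log2 ratios of 4.61, 3.87 and 5.03 for the pairs and 4.22 and 3.61 for Cd74 over H2-Ab1 and H2-Eb1.

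Class II promoters are known for an X box, bound by RFX and CREB, and a Y box, bound by NF-Y. The following stretches are shown because genes of the middle and the low tier share the same spaced pattern of letters. They come from the RefSeq promoter table of GRCm38.p6, which reaches from 250 bases before to 50 after a gene's start and held 7 of the 10 genes. Cd74, H2-Ab1 and Ciita are not among them. Capitals mark AAC, part of the X box, and GATTGG, the inverted CCAAT of the Y box, in each gene's own direction.
H2-Eb1 (mean 32.9 TPM), chr17:34305772-34305816, plus strand: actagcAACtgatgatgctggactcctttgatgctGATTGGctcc
H2-Oa (mean 25.2 TPM), chr17:34092299-34092344, plus strand: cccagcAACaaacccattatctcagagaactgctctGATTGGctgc
H2-Aa (mean 0.880 TPM), chr17:34287863-34287908, minus strand: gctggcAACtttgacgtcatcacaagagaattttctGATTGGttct
H2-DMb1 (mean 0.797 TPM), chr17:34153093-34153138, plus strand: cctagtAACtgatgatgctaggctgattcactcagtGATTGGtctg
H2-DMb2 (mean 0.789 TPM), chr17:34145122-34145167, plus strand: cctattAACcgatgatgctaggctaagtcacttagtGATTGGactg
H2-Ob (mean 0.787 TPM), chr17:34238814-34238856, plus strand: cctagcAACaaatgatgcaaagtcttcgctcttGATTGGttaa
H2-Eb2 (mean 0.201 TPM), chr17:34325539-34325583, plus strand: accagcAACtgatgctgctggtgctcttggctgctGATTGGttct

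The pattern is AAC followed by GATTGG on the same strand with 27 to 30 bases from start to start, searched on both strands. It was chosen after the sequences had been seen. It occurred in 6 of the 7 genes with a promoter in the table and in 0.913% of all 32851 promoter windows. The spacing was 30 bases in H2-Oa, H2-Aa, H2-DMb1 and H2-DMb2, 29 in H2-Eb1 and 27 in H2-Ob. GATTGG alone stood in 16.1% of all windows and CTGATTGG, which contains it, in 4.10%. The longer form was present in H2-Eb1, H2-Oa and H2-Aa. TGACGTCA, the full CREB site, was found in H2-Aa alone among the 7 genes and in 1.79% of all windows. Neither RefSeq window of H2-DMa held the spaced pattern, and both of the starts in that table lie upstream of the gene start used for counting. A match of letters describes the sequence and shows no binding in these cells.

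Ciita itself was barely read. The gene (mm10, chromosome 16, 10488178 to 10527564, plus strand) had 6, 6, 13 and 6 counts, or 0.0681, 0.0707, 0.178 and 0.0411 TPM in replicates 1 to 4. Replicate 3 was the highest, with a Poisson interval from 0.0946 to 0.304 TPM that overlapped those of replicates 1 and 2 but not that of replicate 4, which ended at 0.0895 TPM. Those intervals too hold counting error alone, and Ciita was not called in edgeR without a filter on low counts (adjusted p = 1.00). The mean was 0.0894 ± 0.0603 TPM (SD, n = 4), with 39.4% of protein-coding genes lower. Cd74 was 2326 to 10540 times Ciita within a library. Gene-level counts do not tell which of the alternative promoters of Ciita gave these reads.

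The DNA-bound factors on which CIITA docks were all present. Of 7 such genes 7 were detected, with a median of 33.8 TPM. For this list and those that follow, the share detected over all protein-coding genes was 49.4%. The RFX subunits Rfx5, Rfxap and Rfxank stood at 29.4 ± 3.14, 32.3 ± 3.48 and 22.5 ± 1.14 TPM (SD, n = 4). The NF-Y subunits Nfya, Nfyb and Nfyc stood at 43.7 ± 2.45, 55.5 ± 1.12 and 33.8 ± 1.59 TPM, and Creb1 at 37.8 ± 3.82 TPM. All 7 coactivator and corepressor genes of the list were detected too, with Hdac1 at 192 ± 3.95, Smarca4 at 181 ± 18.0, Hdac2 at 92.6 ± 4.70, Ep300 at 48.0 ± 6.25, Crebbp at 23.0 ± 2.90 and Kat2b at 18.4 ± 1.74 TPM.

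Of 15 genes that feed or restrain Ciita, 13 were detected. Interferon gamma induces Ciita through JAK kinases and IRF1. Its receptor chains Ifngr1 and Ifngr2 ranged from 37.3 to 40.4 and from 24.9 to 30.1 TPM, with Jak2 at 353 ± 31.6, Jak1 at 183 ± 12.3 and Irf1 at 11.8 ± 1.23 TPM. Irf4, a factor of activated lymphocytes, was the highest of the list at 673 ± 59.7 TPM. At the low end, Spib stood at 3.78 ± 0.573 TPM. Prdm1, whose product BLIMP-1 represses Ciita in plasma cells, had 0 to 7 counts. Spi1, which encodes the myeloid and B-cell factor PU.1, had 0 counts in all 4 libraries.

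Genes that act on class II in the endosome were abundant. Of 9 processing genes 8 were detected, with a median of 144 TPM. Ctss, the protease that trims the invariant chain, ranged from 139.7 to 153 TPM. The highest of the list were Ctsz at 298 ± 24.0, Ifi30, the thiol reductase GILT, at 229 ± 24.7 and Ctsb at 181 ± 1.68 TPM (SD, n = 4). The lowest were Ctsl at 17.7 ± 3.19, the endopeptidase gene Lgmn at 11.7 ± 2.39 and Ctsh at 0.123 ± 0.0861 TPM. Sppl2a, the intramembrane protease that clears the last invariant chain fragment, stood at 41.8 ± 2.89 TPM.

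Of 4 genes for turnover of surface class II, 3 were detected. March1, the ubiquitin ligase for class II in dendritic and B cells, had 0 counts in all 4 libraries. Its relatives March8 and March9 stood at 6.29 ± 0.313 and 10.1 ± 1.73 TPM, and Cd83, whose product opposes March1, at 346 ± 6.93 TPM (SD, n = 4).

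The partners of Cd74 in its receptor role were in part abundant. Of 6 genes 4 were detected. For the ligand gene Mif the values were 1284, 1312, 1235 and 1539 TPM, and for its homologue Ddt 153, 179, 160.04 and 186 TPM. Cd44, the signalling partner of the invariant chain, stood at 262 ± 12.5 TPM (SD, n = 4) and the co-receptor Cxcr4 at 6.89 ± 1.59 TPM, with replicate 1 lowest at 4.52 TPM. Cxcr2 had 3 counts in replicate 4 alone, and Ackr3 had 0 counts in all libraries.

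**Figure D4:**
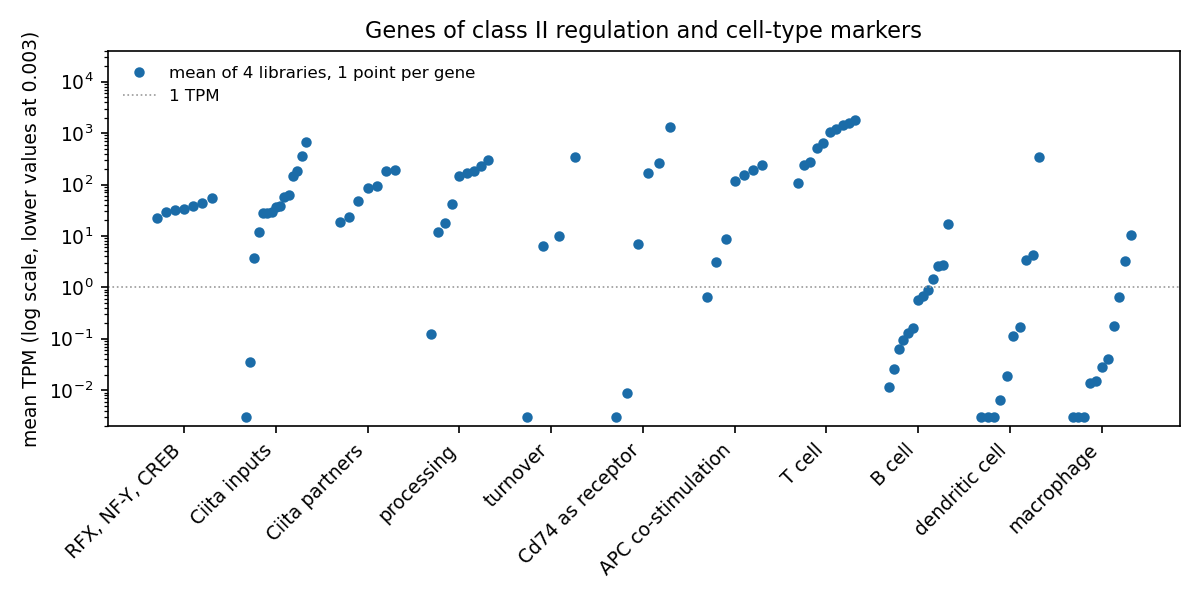
Mean TPM over the 4 libraries on a log axis for each gene of the class II related lists and the cell-type marker lists, with 1 point per gene, a dotted line at 1 TPM and the lowest means, 0 included, drawn near the lower edge. The 7 RFX, NF-Y and CREB genes lie between 22.5 and 55.5 TPM, and most marker genes of antigen-presenting cells lie below 1 TPM.

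Markers of the cells that usually make class II were low but not all absent. Their detected counts stand beside 49.4% of all protein-coding genes. In the B-cell list 4 of 13 genes were detected, with a median of 0.555 TPM and a summed level of 30.3, 28.6, 25.1 and 20.6 TPM in replicates 1 to 4, most of it from Ighd (16.8 ± 3.51 TPM, SD, n = 4). Of its defining markers, Cd79a stood at 1.06, 0.595, 0.690 and 1.24 TPM. Ms4a1 and Pax5 stood at 0.0938 ± 0.0628 and 0.128 ± 0.0264 TPM. The other detected members were Cd79b at 2.55 ± 0.850, Igkc at 2.70 ± 1.09 and Ebf1 at 1.48 ± 0.221 TPM. Cd79a lay in the same range as H2-Aa, H2-Ob and the DM beta genes, and below H2-Ab1, H2-Eb1, H2-DMa and H2-Oa in every library. Ighd, at 21.1, 17.1, 16.4 and 12.5 TPM, was above H2-Ab1 and H2-DMa in replicate 1. In the other replicates it was below H2-Ab1, H2-Eb1, H2-DMa and H2-Oa. None of the 4 defining B-cell markers was at 0 in all libraries.

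Defining markers of dendritic cells and macrophages were at or near 0, apart from Zbtb46. Of 10 dendritic cell genes 3 were detected, with a summed level of 270.3 to 469 TPM that came almost wholly from Cst3, a protease inhibitor made by many cell types. Itgax had 2 counts in replicate 2 alone, Flt3 stood at 0.166 ± 0.0850 TPM (SD, n = 4) and Zbtb46 at 3.35 ± 0.565 TPM, and Batf3, also a factor of activated T cells, stood at 4.27 ± 1.87 TPM. Of 11 macrophage genes 2 were detected, Cd68 at 10.5 ± 0.880 and Adgre1 at 3.21 ± 0.525 TPM, with a summed level of 13.1 to 15.6 TPM. Of the defining genes, Csf1r had 8 counts in replicate 4, Lyz2 had 1 and Fcgr1 4 in replicate 3, and all 3 had 0 elsewhere. Whether the class II counts came from these other cells was not tested, and no library was without the defining B-cell marker Cd79a.

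The class II genes lie close together on the chromosome among genes of other functions. Between H2-K1 and Btnl2 on chromosome 17 (mm10, 33996017 to 34369493) the annotation places 21 protein-coding genes, 8 of them class II members. The members span 224 kb and are interleaved with genes of class I processing. Of the 8 members 4 were detected, and of the other 13 genes 11, beside 49.4% of all protein-coding genes. The other 13 genes had a median of 47.0 TPM. That of the 8 members, 11.3 TPM, falls in the gap between the middle and the low tier. The highest were the class I gene H2-K1 at 884, the immunoproteasome gene Psmb8 at 319 and the bromodomain gene Brd2 at 226 TPM. Adjacent members stood at unlike levels. H2-DMa at 22.6 TPM lies beside H2-DMb2 at 0.789 TPM, and H2-Aa at 0.880 TPM lies between H2-Ab1 and H2-Eb1.

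**Figure D5:**
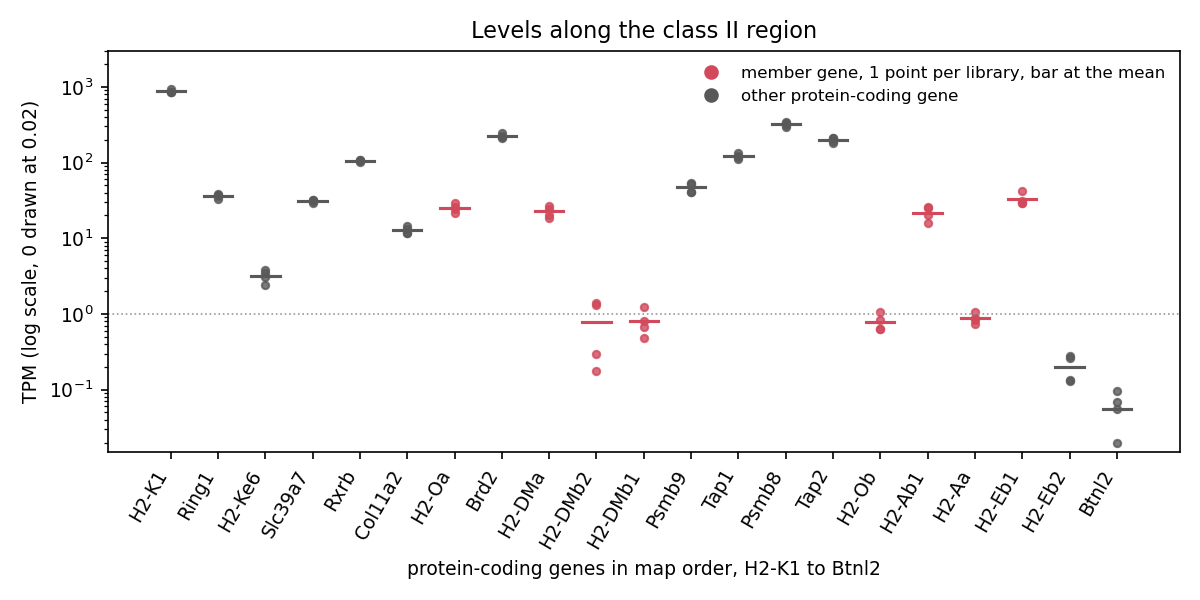
TPM on a log axis of the 21 protein-coding genes from H2-K1 to Btnl2 in map order, with 1 point per library and a bar at the mean, members in red and the other genes in grey; values of 0 are drawn near the lower edge and the dotted line marks 1 TPM. Members of the middle and low tiers lie side by side, and Psmb9, Tap1, Psmb8 and Tap2 between them lie from 47.0 to 319 TPM.

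Whether the members varied between libraries more than genes of their abundance was asked with an edgeR fit over 13681 genes. None of the 8 members that passed the filter on low counts was called at an adjusted p under 0.05, against 0.687% of all genes tested. H2-DMb2 and Ciita did not pass the filter. At an unadjusted p under 0.05 there were 2 of the 8, beside 959 of the 13681 genes, and none of the 8 was among the 43 dispersion outliers of DESeq2. H2-Ab1 came closest, 1.59 times as high in its highest as in its lowest library (edgeR adjusted p = 0.355), followed by H2-DMa at 1.45 times (edgeR adjusted p = 0.701). H2-Eb1 reached an adjusted p of 0.722 and Cd74 one of 1.00 in edgeR. For comparison, 75 genes of the lists described here were tested and 1 was called, Cst3, at 264, 348, 306 and 459.8 TPM (edgeR adjusted p = 2.80e-05).

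Replicates 3 and 4 were both above replicates 1 and 2 for Cd74, H2-Eb1 and H2-Oa, and both below them for H2-Aa and H2-Ob. These are the pairs that Xist and Ddx3y set apart. Sex and any other difference between the pairs cannot be told apart here. The same lack of overlap, in either direction, was found in 31.4% of the 13076 protein-coding genes with a count in every library, 19.7% upward and 11.7% downward, so 5 of 10 members is given as a description.

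The protein-coding genes whose library pattern was nearest to the mean pattern of H2-Aa, H2-Ab1 and H2-Eb1 were Mpv17l2, Oaz1, Mlycd, Erich1 and Hexim2. Their root mean square distance from it, on centred log2 TPM over 4 libraries, was 0.015 to 0.022 among 8526 genes of at least 10 TPM. H2-Oa, Cd74 and H2-DMa ranked 948, 1518 and 1997 in that order. Whether distances this small arise by chance among 8526 genes and 4 libraries was not tested, and H2-Aa rests on 22 to 38 counts a library. The 3 genes that set the pattern did not share one themselves: H2-Aa was highest in replicate 2 and lowest in replicate 4, H2-Eb1 highest in replicate 4, and H2-Ab1 lowest in replicate 1.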

How the data were processed

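Each library has a deposited table of raw counts of read pairs, which the authors made with featureCounts 1.4.6-p4 over GENCODE mouse release 13 exons, per the file headers (reverse strand, both ends mapped, no multimapping or overlap option). Per the labels, mm10 was the build. Alignment settings were not given in the sources used here. Symbols came from GENCODE release 21, matched on the identifier without version for 50376 of 50600 genes. TPM was computed from the counts and the summed exon lengths in the files, over all genes.

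A gene counted as detected where no library was below 1 TPM. The floor was 3 counts per library. Intervals are exact 95% Poisson intervals. Spread between libraries was tested by the deviance of an intercept-only edgeR fit (version 4.0.16, R 4.3.3, trended dispersion, filterByExpr, TMM), compared with a chi-square distribution and adjusted by Benjamini-Hochberg over all genes. Tested on simulated data for variable genes over 13681 genes, the fit found 18% of the genes altered 1.5 times and 96% of those altered 4 times. Of those altered 2 times it found 74%. The counts were drawn at the fit's own trended dispersion, and each altered gene was raised in 2 of the 4 libraries. A change in 1 library alone was not simulated. Other tools were Python 3.11.15 (pandas 2.3.3, scipy 1.17.1) and DESeq2 1.42.0. No pair of libraries agreed within sampling noise (chi-square per degree of freedom of at least 18.9).

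The members and lists were chosen with earlier results of these data known. All members were named, with list genes that are class II chains, RFX or NF-Y subunits, the 3 highest or 3 lowest of their list, markers of at least 1 TPM or defining markers, the 3 highest genes of the region and the 5 nearest library patterns. Other genes were named after their values were seen, and some list genes are not reported here. Alternatives tried were other thresholds, scalings, filters and dispersions, leaving out each replicate, and, after seeing the data, transcript lengths.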

Additional observations from a re-analysis of the deposited data

Results flagged for a closer look

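A library far from the other 3 was found in 7 of 100 results checked by the gap to its nearest neighbour over the whole range, above the 95% critical value of Dixon's test for 4 libraries, where chance gives about 1 in 20. Cxcr4 was low in replicate 1 at 4.52 TPM, Pdcd1lg2 was high in replicate 1 at 130.3 TPM, and Usf1 was low in replicate 3 at 58.9 TPM. The rest rest on at most 8 counts: Csf1r at 0.0589 TPM in replicate 4, Fcgr1 at 0.111 and Lyz2 at 0.0546 TPM in replicate 3, and Itgax at 0.0258 TPM in replicate 2. None of the 10 members was among them. H2-Eb1 in replicate 4, at 42.1 TPM, came closest with a gap of 0.825 of the range.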

How the results depend on the processing

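No paired analysis was possible because the labels give a single group. The member levels were taken as the median over 10 genes, which falls in the gap between the middle and the low tier. This median was 11.1 TPM per library on average. It moved to 7.80 TPM with the length of the longest transcript and to 7.21 TPM with that of the longest protein-coding transcript. Both lengths were chosen after seeing the data. With each length 5 of 10 levels moved by over 1 SD, among them H2-Aa (from 0.880 to 0.407 and 1.07 TPM), H2-DMa (from 22.6 to 14.7 and 13.5 TPM) and H2-Eb1 (from 32.9 to 18.5 and 17.0 TPM). With the longest transcript the log2 ratio of H2-Ab1 to H2-Aa rose to 5.83, and with either transcript length that of Cd74 to H2-Ab1 was 3.78 and that of Cd74 to H2-Eb1 was 4.11. The 6 ratios recomputed, those of the 3 pairs and of Cd74 to H2-Ab1, H2-Eb1 and Ciita, stayed above 0 in all settings, whereas H2-Eb1 fell below H2-Oa with either transcript length. Scaling by protein-coding genes, TMM or DESeq2 factors and leaving out each replicate kept all 10 member levels within 1 SD. By a count of at least 10, 8 members were detected. At a TPM threshold of 5 the detected genes fell to 1 in each of the B-cell, dendritic cell and macrophage lists and to 0 in the thymic epithelium list. Variable genes numbered 94, and 617 with a common dispersion, 43 as DESeq2 dispersion outliers, and 38 to 87 without one replicate, the lowest without replicate 2 and 46 without replicate 1 or 4. No member was called in any edgeR setting (the lowest adjusted p of any member and setting was 0.0961, for H2-Ab1 with a common dispersion, and H2-Ab1 ranged up to 1.00, without replicate 1). Depth limits Ciita, which rests on 6 to 13 counts a library, and the DM beta genes, with 5 to 51.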

Other observations

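Surface ligands that antigen-presenting cells show beside class II were also read. Of 7 such genes 6 were detected, with a median of 116 TPM. Cd80, a ligand of CD28 and CTLA-4, had 243, 215, 236 and 262 TPM, while its relative Cd86 stood at 1.99, 2.72, 4.35 and 3.51 TPM. Tnfsf4, the OX40 ligand, stood at 189 ± 7.78 TPM (SD, n = 4), and Cd274 and Pdcd1lg2, the ligands of PD-1, at 155 ± 21.7 and 116 ± 9.48 TPM. Icosl stood at 8.76 ± 1.79 TPM and Cd40, the B-cell and dendritic cell receptor for CD40 ligand, at 0.661 ± 0.173 TPM.

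T-cell molecules that bind class II were present. Cd4 stood at 1056 ± 62.8 TPM and Lag3, an inhibitory receptor that binds class II, at 158 ± 18.4 TPM (SD, n = 4). In the thymic epithelium list, Foxn1 and Psmb11 had 0 counts in all 4 libraries, Aire had 0 to 12 counts, and Prss16 and Epcam stood at 4.04 ± 0.609 and 2.74 ± 0.803 TPM.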
